A study of Mus musculus with 3 samples.

Results

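Tph1 encodes tryptophan hydroxylase 1, the enzyme that turns tryptophan into 5-hydroxytryptophan and so sets the pace of serotonin synthesis outside the nervous system. The gene, 1 of 19050 gene symbols measured, was followed through 3 droplet single-cell RNA-seq libraries of mouse mammary epithelium. It had been picked for its presence in a single epithelial class in these same data, so its level across classes is described and not tested. All 3 libraries form 1 group with no treatment named in the labels. Number 4 glands from 4 mice (FVB/NJ, female, 10 weeks old) were combined, digested to single cells, and sorted to keep live epithelium, with antibodies to EpCAM and CD49f, to the endothelial marker CD31, and to CD45 and Ter119 of blood cells, beside the dye SytoxBlue, and 10x Genomics v2 libraries were made. Whether each library had its own mice is not given in the labels, so the p-values below speak only of variation from library to library, part or all of which could be technical.

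Serotonin is a local signal in the mammary gland. It is made in the epithelium in 2 steps, hydroxylation of tryptophan by tryptophan hydroxylase with tetrahydrobiopterin as cofactor, then decarboxylation by aromatic amino acid decarboxylase (Ddc). Vesicular transporters load it, the plasma membrane transporter Slc6a4 takes it back up, and monoamine oxidases break it down. In the gland it is known for its part in milk stasis and involution, in tight junctions, and in the release of parathyroid hormone-related protein, and prolactin is known to raise Tph1.

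Tph1 lies on mouse chromosome 7, 46644641 to 46672537 on the minus strand of GRCm38 (mm10), and no other annotated gene overlaps it in GENCODE M21. Its annotation holds 8 transcripts, of which 3 are protein-coding; Tph1-201 and Tph1-202 have 11 exons each and begin at different first exons. The 250 bases before each of these starts are shown because they are the promoter-side sequence of the gene this account is about. They were taken from RefSeq (GRCm38.p6) and are written 5′ to 3′ on the minus strand, with capitals marking TGACG, the core of a cAMP response element, and CCAAT, on either strand. The window of Tph1-201 is chr7:46672538-46672787. The window of Tph1-202 is chr7:46667378-46667627, inside the Tph1-201 transcript but outside its exons.
Tph1-201 window: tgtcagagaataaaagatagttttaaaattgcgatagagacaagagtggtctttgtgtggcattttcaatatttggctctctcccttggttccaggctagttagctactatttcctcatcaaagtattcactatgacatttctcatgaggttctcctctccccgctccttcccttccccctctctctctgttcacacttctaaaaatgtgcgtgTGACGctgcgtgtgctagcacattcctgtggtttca
Tph1-202 window: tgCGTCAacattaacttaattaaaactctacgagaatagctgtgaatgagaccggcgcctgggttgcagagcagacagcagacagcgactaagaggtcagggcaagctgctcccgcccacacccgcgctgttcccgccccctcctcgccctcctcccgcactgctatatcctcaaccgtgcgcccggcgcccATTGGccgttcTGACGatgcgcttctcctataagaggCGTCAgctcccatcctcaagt
The Tph1-201 window has 43.6% G and C and holds 1 TGACG. The Tph1-202 window has 58.8% G and C and holds 3 TGACG matches, counting both strands, and 1 CCAAT on the opposite strand. Among 32851 windows of the same length, 17.8% held TGACG, 0.69% held at least 3 matches, and 33.8% held CCAAT. Neither window matched TTCNNNGAA (a Stat site, in 7.0% of windows), TGTTCT (the core shared by progesterone and glucocorticoid receptor elements, in 16.1%) or a full palindromic oestrogen response element (in 0.1%); the search covered both strands, and these motifs do not overlap those shown. UMIs were counted from the 3′ end of transcripts, so the counts do not show which start was used.

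Cells were assigned to a class by UMIs (unique molecular identifiers, 1 per captured transcript) summed over 11 marker genes. The largest sum had to reach 5 UMIs and 3 times each of the others, with Krt5, Krt14 and Acta2 for basal-like cells, Csn3, Elf5, Kit and Aldh1a3 for luminal progenitor-like cells, and Prlr, Areg, Pgr and Esr1 for hormone-responsive-like cells. This gave 2530 hormone-responsive-like, 7952 luminal progenitor-like and 9763 basal-like cells, and left 4107 cells without a class. All 7 further hormone-responsive markers fixed for checking the class passed the test as higher than in both other classes, among them the pioneer factor Foxa1, at 438 CPM (UMIs per 1000000 of the summed UMIs, mean of 3 libraries) against 5.52 and 4.89 in luminal progenitor-like and basal-like cells. Over all genes tested, 10.4% and 15.2% were called higher than in these classes. The markers were chosen with earlier results of these data known, so this check is not independent. The libraries had 6691, 9034 and 11120 barcodes and median depths of 3390, 3826 and 3332 UMIs in hormone-responsive-like cells. Between 77 and 146 barcode sequences occurred in both libraries of a pair, and none of these was a hormone-responsive-like cell with Tph1 in both.

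Tph1 was concentrated in the hormone-responsive-like cells of every library. Its level there was 171, 184 and 138 CPM in libraries 1, 2 and 3, a mean of 164 ± 23.5 CPM (SD, n = 3). Luminal progenitor-like cells had 1.96, 2.30 and 1.78 CPM (mean 2.02 ± 0.265), and basal-like cells 1.21, 1.65 and 2.44 CPM (mean 1.77 ± 0.621). The lowest hormone-responsive-like value was thus far above every value of the other classes, whereas the ranges of luminal progenitor-like and basal-like cells overlapped and their order is not read. Within a library the ratio of hormone-responsive-like to luminal progenitor-like cells was 86.9, 79.9 and 77.6. The ratio to basal-like cells was 141, 112 and 56.7, the first of these resting on 4 basal-like UMIs. Hormone-responsive-like cells were 10.4% of all cells and held 1433 of 1656 Tph1 UMIs, or 86.5%.

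**Figure D1:**
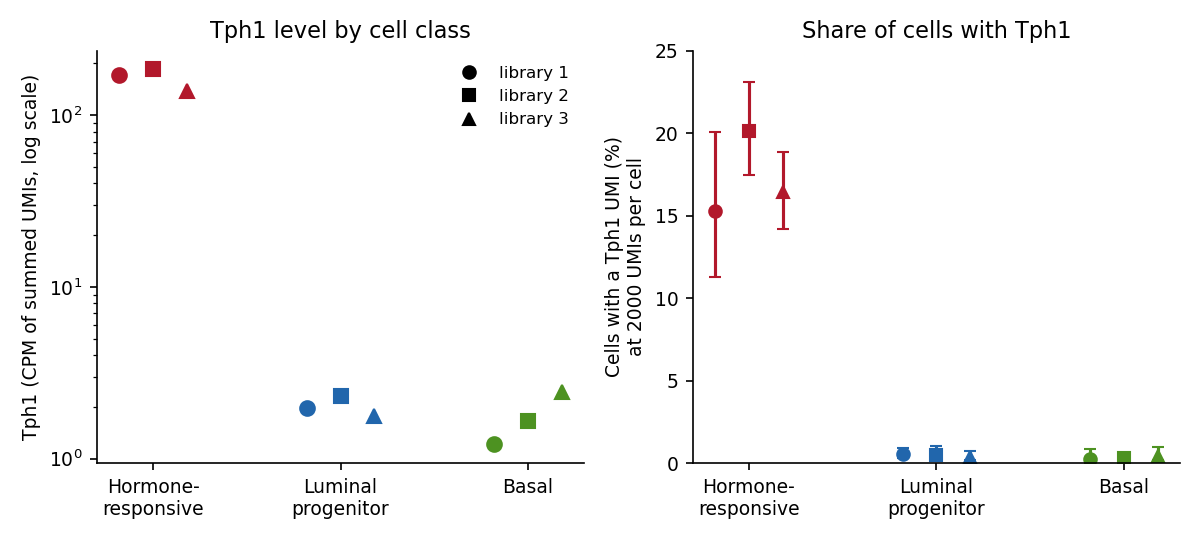
Left, Tph1 level in CPM of summed UMIs (log axis) by cell class, each point a library. Right, the share of cells with a Tph1 UMI after each cell was thinned to 2000 UMIs, with exact 95% binomial intervals; hormone-responsive-like cells lie between 15.3% and 20.1% and both other classes under 0.6%.

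A minority of hormone-responsive-like cells carried a Tph1 UMI. The share was 21.2% (exact 95% binomial interval 17.0 to 25.9), 28.9% (26.1 to 31.9) and 19.9% (17.7 to 22.2) in libraries 1, 2 and 3, in all 596 cells. With every cell thinned to 2000 UMIs, which left out 423 shallower cells, the share was 15.3% (11.3 to 20.1), 20.1% (17.4 to 23.1) and 16.4% (14.2 to 18.8). The thinned intervals overlap between libraries, while the unthinned interval of library 2 lies above those of libraries 1 and 3. All of these intervals cover counting error only. The unthinned share was 0.727% ± 0.164 for luminal progenitor-like cells (median depth 3213 UMIs, against 3526 for hormone-responsive-like cells) and 0.365% ± 0.0951 for basal-like cells (1966 UMIs, n = 3). Of the 93 cells of these classes with Tph1, 2 had more than a single UMI, compared with 308 of the 596 hormone-responsive-like cells.

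The low counts outside the class were set against 5 other hormone-responsive transcripts. Per 1000 UMIs of Gipc2, a PDZ-domain gene that the class rule did not use, Tph1 had 473, 492 and 461 UMIs in hormone-responsive-like cells. It had 513, 517 and 429 in luminal progenitor-like cells and 200, 315 and 600 in basal-like cells, the last 3 from 20, 54 and 30 Gipc2 UMIs. Per 1000 UMIs of Stc2 the values were 74.7, 115 and 114, then 114, 109 and 113, and then 70.2, 86.3 and 168 in the same order of classes. Relative to these 2 genes the luminal progenitor-like values thus lay near those of the hormone-responsive-like class. Both are among the 10 genes most like Tph1 over the same class sums (r = 0.9937 for Gipc2 and 0.9954 for Stc2). Nearly equal ratios follow from that likeness and are not separate evidence. Relative to Prlr, the prolactin receptor, Tph1 stood lower in luminal progenitor-like cells (22.1, 20.7 and 15.7) than in hormone-responsive-like cells (54.9, 58.8 and 41.1) and higher in basal-like cells (97.6, 91.4 and 99.5). Relative to Dnajc12 it was lower in luminal progenitor-like cells (278, 395 and 162 against 1127, 1187 and 524), with 400, 515 and 600 in basal-like cells from 10, 33 and 30 Dnajc12 UMIs. Relative to Areg it was higher in luminal progenitor-like cells (222, 128 and 221 against 99.9, 108 and 142), with 103, 85.9 and 305 in basal-like cells. Prlr and Areg belong to the class rule, so their counts outside the class are limited by it. Whether the counts outside the class come from free RNA was not tested beyond these ratios.

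Values on either side of the class limits were as follows. Of 80 cells with a hormone-responsive sum of exactly 5 UMIs, 15 had Tph1 (18.8%), and of 92 cells with a sum of 4, 20 had it (21.7%). Where the sum was 3 to under 4 times the larger of the others the share was 22.8% of 79 cells, and at 2 to under 3 times 21.7% of 60 cells. In cells without a class Tph1 stood at 12.8 ± 2.52 CPM, in 92 cells. The hormone-responsive sum was the largest in 9 of 12, 23 of 38 and 29 of 42 of these.

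Mast cells, platelets and enterochromaffin cells of the gut are known Tph1 or serotonin stores and were looked for by their markers. Of 9 mast cell markers 3 were among the measured symbols, and these had 0 UMIs in hormone-responsive-like cells; 1 cell in each library had 3 or more mast cell UMIs, and none of these had Tph1. Platelet markers, nearly all of whose UMIs were of Itga2b (63 UMIs in hormone-responsive-like cells, against 2 of Pf4 and 0 of Ppbp), summed to 7.15, 5.35 and 7.08 CPM in hormone-responsive-like cells with Tph1 and to 4.13, 6.80 and 10.1 CPM in those without. Of 8 enterochromaffin and neuroendocrine markers 5 were measured, with 1 UMI in all hormone-responsive-like cells. Immune markers were at 3.57, 2.67 and 2.36 CPM with Tph1 and at 0, 5.20 and 14.9 CPM without it. The 4 fibroblast markers summed to 82.2, 188 and 89.7 CPM with Tph1 and to 224, 180 and 164 CPM without, carried by Dcn, at 167 CPM in the class, while Col1a1, Col3a1 and Pdgfra were at 2.13, 5.09 and 0.342 CPM. The erythroid markers summed to 111, 385 and 134 CPM against 168, 249 and 159 CPM, carried by the alpha globin genes Hba-a1, at 165 CPM, and Hba-a2, at 26.7 CPM, while the beta globin genes Hbb-bs and Hbb-bt were at 2.39 and 0.0832 CPM. The part of other cell types in the results was not tested beyond these values.

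Within the hormone-responsive-like class Tph1 was spread unevenly over cells. At 2000 UMIs per cell, 85 of 2107 cells (4.03%) had 3 or more Tph1 UMIs and held 340 of 710 UMIs (47.9%), while 206 cells had 1. The variance of the count per cell was 4.15, 2.37 and 2.35 times its mean in the 3 libraries, where a value of 1 is what equal cells would give. Library 1, with 281 cells, had a cell with 12 Tph1 UMIs. Class genes of a like mean count were closer to 1. Dnajc12 stood at 1.12 ± 0.0964, Esr1, the oestrogen receptor, at 1.06 ± 0.0287, and the angiotensin receptor Agtr1a at 1.32 ± 0.196 (n = 3). R3hdml and Prom1 stood at 1.46 ± 0.0897 and 1.31 ± 0.154. Tph1 lay above each of these genes in every library. Areg, an ErbB ligand of these cells, was more uneven still, at 5.64 ± 0.827 around a mean of 2.86 UMIs per cell. These ratios are descriptions, since the class was found from its markers and Tph1 was chosen on these cells.

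**Figure D2:**
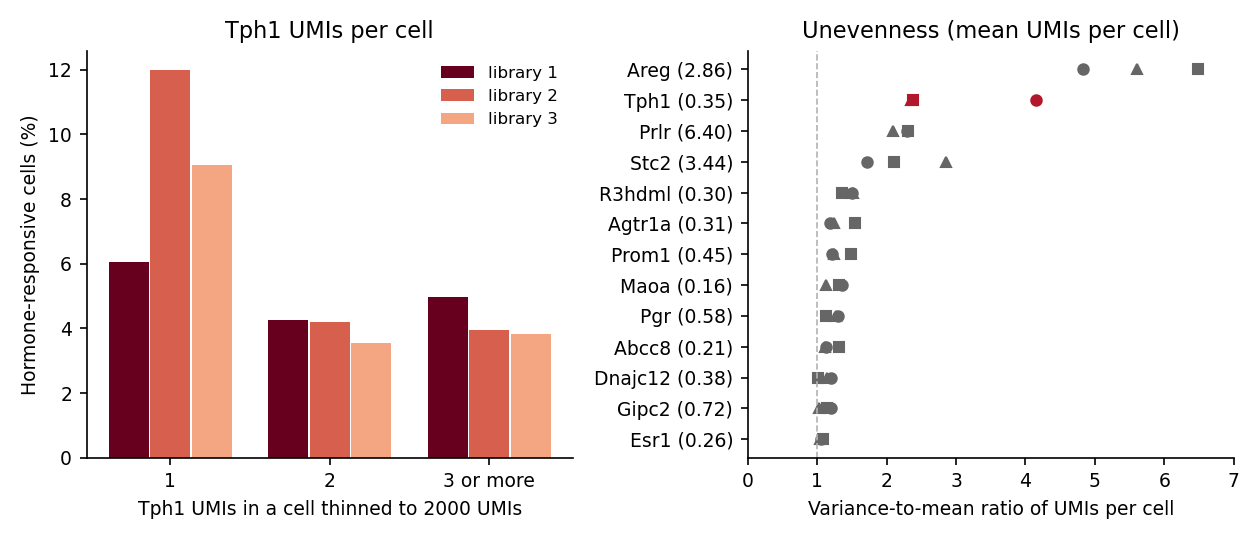
Left, percentage of hormone-responsive-like cells with 1, 2 or 3 or more Tph1 UMIs at 2000 UMIs per cell, by library. Right, variance-to-mean ratio of UMIs per cell for Tph1 (red) and 12 other genes (grey), each point a library (circle 1, square 2, triangle 3), with the mean UMIs per cell in brackets; Tph1 lies at 2.35 to 4.15 and Dnajc12, at a similar mean, near the dashed line at 1.

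The genes with a pattern most like Tph1 were other genes of the hormone-responsive-like class. Likeness was Pearson's r of log2(CPM + 1) over the 9 sums of 3 classes and 3 libraries, which share libraries and depth, among 7862 genes of at least 20 CPM in a class. The closest were Abcc8, a regulatory subunit of ATP-sensitive potassium channels (r = 0.998), Sel1l, of endoplasmic reticulum quality control (0.998), Agtr1a (0.997), Proc, the protein C zymogen (0.997), and Stc2, a secreted glycoprotein (0.995). Abcc8 stood at 105 ± 23.6 CPM in hormone-responsive-like, 2.27 ± 0.554 in luminal progenitor-like and 1.97 ± 0.178 CPM in basal-like cells. Sel1l was less specific, at 134 ± 8.42, 43.8 ± 2.89 and 42.2 ± 2.84 CPM. Ptpn5, Capn8, R3hdml, Gipc2 and Prom1 completed the 10, with r between 0.9935 and 0.9941.

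Dnajc12 shared the class of Tph1, while the next enzyme of the route, Ddc, was not detected there and was scarce in the other classes. Dnajc12, a co-chaperone of the aromatic amino acid hydroxylases, was at 151, 155 and 264 CPM in hormone-responsive-like cells, with 7.07, 5.83 and 11.02 CPM in the luminal progenitor-like class and 3.02, 3.201 and 4.06 CPM in the basal-like class. It rose by a log2 fold change of 4.42 ± 0.17 over luminal progenitor-like cells (SD over the 3 libraries, adjusted p = 2.1e-07) and by 5.67 ± 0.26 over basal-like cells (adjusted p = 1.6e-07). No hormone-responsive-like value overlapped another class. Ddc, the decarboxylase that makes serotonin, had 0 UMIs among the 8878394 UMIs of hormone-responsive-like cells, which allows up to 0.338 CPM. It had 11 UMIs in luminal progenitor-like cells (0.41 ± 0.27 CPM) and 4 in basal-like cells (0.33 ± 0.50 CPM). These levels lie near that limit, so the 0 does not set the hormone-responsive-like class apart. Among the 596 hormone-responsive-like cells with Tph1, 272 had a Dnajc12 UMI (45.6%, interval 41.6 to 49.7) and 0 had a Ddc UMI, which by the limit of 3 counts allows up to 0.503% of cells with a UMI. This limits cells with a captured Ddc transcript, not cells that express the gene.

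Gch1, which starts tetrahydrobiopterin synthesis and limits its rate, was low in the class that holds Tph1. It had 2.40, 2.21 and 4.49 CPM in hormone-responsive-like cells, 14.8, 20.3 and 30.3 CPM in luminal progenitor-like cells and 61.1, 26.1 and 23.7 CPM in basal-like cells. The log2 fold change was -2.87 ± 0.26 against luminal progenitor-like (adjusted p = 0.0035) and -3.51 ± 1.12 against basal-like cells (adjusted p = 0.00071). Of the 596 cells with Tph1, 5 had a Gch1 UMI. Pts, the next enzyme of the cofactor route, was at 25.1 ± 2.15, 27.4 ± 2.06 and 10.1 ± 0.809 CPM in hormone-responsive-like, luminal progenitor-like and basal-like cells and was called against basal-like cells (1.19 ± 0.13). Spr, which completes the cofactor, and Qdpr, which recycles it, were not called in either comparison, at 48.2 ± 15.6 and 18.3 ± 2.02 CPM in hormone-responsive-like cells. Pcbd2, a recycling enzyme and co-activator, stood at the fold threshold against basal-like cells (1.02 ± 0.13). It fell under it without library 1 (0.94) or library 2 (0.99), with DESeq2 (0.945), without the filter on low counts (0.983) and on sums thinned to equal totals (0.865). Its paralogue Pcbd1 was lower (-1.08 ± 0.59). This was -0.89 with adjusted p = 0.16 without library 3, -0.97 on sums thinned to equal totals, and not called without the library block (adjusted p = 0.14). Gchfr, the feedback regulator of Gch1, was higher than in basal-like cells (2.00 ± 2.34, adjusted p = 0.020), but library 1 went the other way, with 0 UMIs in hormone-responsive-like cells. That call was lost without library 2 (adjusted p = 0.30), without library 3 (adjusted p = 0.24), with DESeq2 (adjusted p = 0.064) and without the library block (adjusted p = 0.090).

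Counted together, 9 of 10 listed synthesis and cofactor genes other than Tph1 were among the symbols and 8 passed the filter on low counts. Against luminal progenitor-like cells 1 was higher, 1 lower and 6 not called, and against basal-like cells 4 were higher, 2 lower and 2 not called. Over all 12642 genes tested, 24.5% were called against luminal progenitor-like cells (10.4% higher, 14.1% lower) and 35.9% against basal-like cells (15.2% higher, 20.7% lower). The list's median log2 fold change was -0.22 and 0.64, beside -0.05 and 0.00 over all genes. Tph2, the neuronal hydroxylase, is not among the symbols used here.

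**Figure D3:**
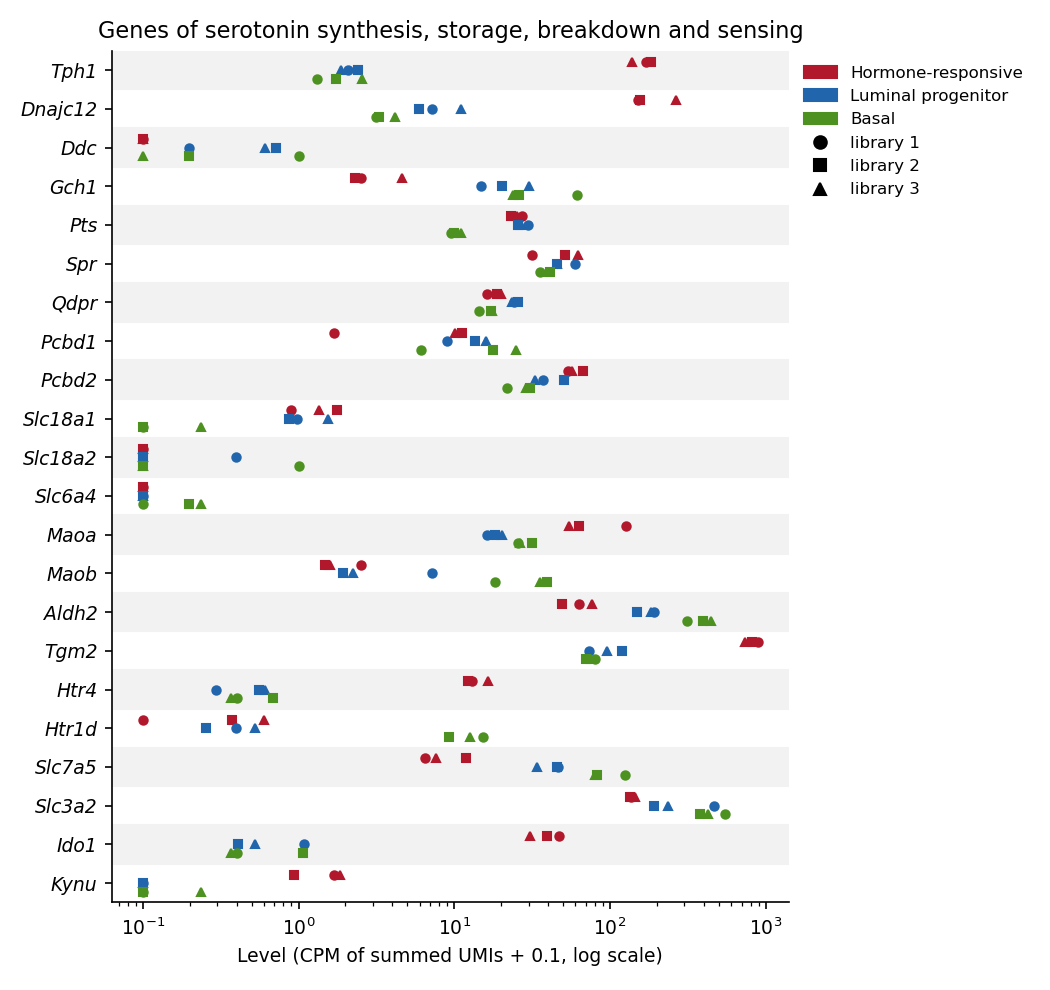
Level in CPM of summed UMIs plus 0.1 (log axis) of 22 genes of serotonin synthesis, storage, breakdown, sensing and tryptophan use; colours are cell classes and symbols libraries, and genes with no UMI lie at the left edge. Tph1, Dnajc12, Maoa, Tgm2, Htr4 and Ido1 are higher in hormone-responsive-like cells of all libraries, while Gch1, Aldh2, Slc7a5 and Slc3a2 are lower.

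Transporters that store or recover serotonin were scarce in all classes. The vesicular transporter Slc18a2 and the reuptake transporter Slc6a4 had 0 UMIs in hormone-responsive-like cells, and the other vesicular transporter, Slc18a1, had 12. Slc18a1 had 31 UMIs in luminal progenitor-like cells and 1 in basal-like cells, and it did not pass the filter.

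The breakdown enzymes were divided between classes. Maoa, the monoamine oxidase that prefers serotonin, was at 126, 63.0 and 54.6 CPM in hormone-responsive-like cells, 16.0, 18.3 and 20.01 CPM in luminal progenitor-like cells and 25.4, 31.6 and 26.4 CPM in basal-like cells. It rose by 1.93 ± 0.81 (adjusted p = 0.00064) over luminal progenitor-like and by 1.34 ± 0.68 (adjusted p = 0.0028) over basal-like cells. Library 1 was the high library, and without it the difference from basal-like cells was 0.89 (adjusted p = 0.00014), under the fold required for a call. Maob, its paralogue, was at 1.76 ± 0.559 CPM in hormone-responsive-like and 31.0 ± 11.3 CPM in basal-like cells, for a log2 difference of -4.38 ± 0.91 (adjusted p = 0.00039). Aldh2, which oxidises the aldehyde that the monoamine oxidases leave, was lower than in luminal progenitor-like (-1.62 ± 0.15) and basal-like cells (-2.73 ± 0.29). Tgm2, a transglutaminase that can couple serotonin to proteins, was at 889, 813 and 736 CPM, against 96.4 ± 23.3 in luminal progenitor-like and 75.2 ± 5.40 CPM in basal-like cells, with log2 fold changes of 2.95 ± 0.44 (adjusted p = 6.3e-06) and 3.33 ± 0.16 (adjusted p = 2.1e-06). Of 14 listed genes of storage, reuptake and breakdown, 12 were among the symbols and 6 passed the filter. Of these, 2 were higher and 1 lower than in luminal progenitor-like cells, and 2 higher and 2 lower than in basal-like cells, with medians of -0.89 and -0.77. Over all genes tested, 24.5% and 35.9% were called in these comparisons.

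Serotonin receptors were few. Htr4, a receptor coupled to cAMP production, was the only listed receptor above 1 CPM in hormone-responsive-like cells, at 12.8, 12.2 and 16.5 CPM, with 0.389 ± 0.168 CPM in luminal progenitor-like and 0.385 ± 0.171 CPM in basal-like cells. Its log2 fold changes were 4.95 ± 0.32 (adjusted p = 1.6e-05) and 4.92 ± 0.52 (adjusted p = 1.3e-05), and hormone-responsive-like values did not overlap the others. Htr1d, an inhibitory receptor, was instead found in basal-like cells, at 12.2 ± 3.01 CPM against 0.258 CPM in hormone-responsive-like cells (-5.14 ± 0.94, adjusted p = 2.3e-05). Of 14 listed receptors 10 were among the symbols and 2 passed the filter. Htr7, a receptor linked to mammary tight junctions, had 0 UMIs in hormone-responsive-like and luminal progenitor-like cells and 2 in basal-like cells.

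Tryptophan entry and its competing route also differed by class. Slc7a5, the light chain of the large neutral amino acid transporter, was at 6.41, 11.9 and 7.48 CPM in hormone-responsive-like cells, below luminal progenitor-like (41.7 ± 6.77 CPM, log2 fold change -2.29 ± 0.47, adjusted p = 9.7e-05) and basal-like cells (96.0 ± 25.4 CPM, -3.45 ± 0.79, adjusted p = 4.9e-06). Its partner chain Slc3a2 was lower too, at 139 ± 5.19 CPM, by -1.12 ± 0.68 and -1.75 ± 0.35, the first under the fold threshold without library 1 (-0.75). Ido1, which opens the tryptophan ring towards kynurenine, was at 47.2, 39.5 and 30.4 CPM in hormone-responsive-like cells and under 1 CPM in every sum of the other classes, with log2 fold changes of 5.85 ± 0.45 (adjusted p = 2.6e-06) and 5.84 ± 0.61 (adjusted p = 2.1e-06). Wars, the tryptophan transfer RNA ligase, was higher in both comparisons (1.37 ± 0.47 and 1.42 ± 0.62). These 4 genes were all that passed the filter of 12 measured, 2 higher and 2 lower in each comparison. Their median log2 fold changes were 0.13 against luminal progenitor-like and -0.16 against basal-like cells. The share called over all genes was 24.5% and 35.9%.

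Genes of regulated secretion gave a partial set. Syt7, a calcium sensor of exocytosis, was at 25.6, 50.3 and 79.3 CPM in hormone-responsive-like cells and rose by 6.04 ± 1.03 (adjusted p = 2.2e-05) over luminal progenitor-like and 7.25 ± 0.71 (adjusted p = 1.1e-05) over basal-like cells, where 2 libraries had 0 UMIs. Rab27b, a GTPase of secretory vesicles, rose by 1.84 ± 0.19 and 2.03 ± 0.26. Cpe, a prohormone-processing carboxypeptidase, was lower, by -4.29 ± 0.10 and -1.45 ± 0.25, the latter not called on sums thinned to equal totals (adjusted p = 0.10) or without the library block (adjusted p = 0.065). The granule protein Chga had 0 UMIs in all 3 classes and Chgb had 1 in hormone-responsive-like cells. Of 15 listed genes 13 were measured and 6 passed the filter, 2 higher and 1 lower in each comparison. Median log2 fold changes of the list were 0.19 against luminal progenitor-like and 0.64 against basal-like cells. Among all genes tested, 24.5% and 35.9% were called.

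Transcripts of the signalling route known to act on Tph1 through the prolactin receptor were counted beside it. The activity of the route was not measured. Jak2, the kinase bound to that receptor, was at 71.7 ± 18.3 CPM in hormone-responsive-like cells and rose by 1.25 ± 0.68 over luminal progenitor-like and 1.28 ± 0.48 over basal-like cells; without library 1 the first was 0.95. Stat5a was at 150 ± 45.2, 97.5 ± 27.1 and 45.5 ± 6.84 CPM in hormone-responsive-like, luminal progenitor-like and basal-like cells and was called against basal-like cells (1.59 ± 0.25, adjusted p = 0.00017). The Stat5 target Cish was lower than in both, by -1.09 ± 0.33 and -1.53 ± 0.83. The first was not called without the library block (adjusted p = 0.054) or on sums thinned to equal totals (-0.88, under the fold threshold). The Stat5 target Csn2, beta-casein, was lower than in luminal progenitor-like cells (-5.91 ± 0.87) and not called against basal-like cells (-0.26, adjusted p = 0.33). The Stat5 target Socs2 went the other way, higher than in luminal progenitor-like cells (1.69, adjusted p = 0.0092). Its call did not survive leaving out either library 2 or library 3, and it was not called against basal-like cells (-0.30). Socs3, also listed here, was higher than in luminal progenitor-like cells (2.31) and lower than in basal-like cells (-2.28). All 11 genes of this list passed the filter, with 3 higher and 5 lower against luminal progenitor-like cells and 3 higher and 3 lower against basal-like cells. Over all genes tested, 24.5% and 35.9% were called. The list's median log2 fold changes were -0.44 and -0.30, beside -0.05 and 0.00 over all genes.

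Hormone-responsive-like cells with and without Tph1 were then compared at equal depth. Every cell was thinned to 2000 UMIs, and cells with at least 1 thinned Tph1 UMI (43, 163 and 167 in libraries 1, 2 and 3) were set against those with 0 (238, 646 and 850). Before thinning, cells with Tph1 had median depths of 3771, 4094 and 3516 UMIs and those without 3813.5, 4052.5 and 3534.5. Of cells counted as without, 7.98%, 13.2% and 6.12% had a Tph1 UMI that thinning removed, so the groups are not pure. Tph1 and the 11 class genes were left out of the test.

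Only 7 of 5634 genes (0.124%) passed, all higher in cells with Tph1. This single direction did not hold in every fit. With only another random thinning there were 6 genes higher and 2 lower. The counts were 26 and 16 without library 1, 8 and 3 without library 2, and 6 and 4 at 3000 UMIs per cell. They were 5 and 3 with at least 2 Tph1 UMIs required, and 17 and 2 with Tph1 status taken from all UMIs. Without the filter on low counts they were 8 and 2, and on sums thinned to equal totals 6 and 1. Pcp4, a calmodulin-binding peptide, was at 116, 92.0 and 287 CPM in cells with Tph1 and at 4.20, 51.1 and 71.2 CPM in cells without, a log2 fold change of 1.73 ± 1.65 (adjusted p = 0.00071). Its within-library difference was 4.04 in library 1, where cells without Tph1 were nearly empty of it, and 0.79 in library 2, on the log2 scale. With another random thinning it was 0.67 over all libraries (adjusted p = 0.51). Clca3a2, of a family of chloride channel regulators with close copies between which reads could be divided, was at 849, 522 and 802 CPM against 439, 388 and 425 CPM (0.71 ± 0.28, adjusted p = 0.0028). Each of its values with Tph1 lay above each without.

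Crip1, a LIM-domain protein, was at 1140, 678 and 922 CPM with Tph1 and at 637, 401 and 672 CPM without (0.62 ± 0.18, adjusted p = 0.0033), lost without library 2 (adjusted p = 0.10). Fxyd2, a modulator of the sodium pump, was at 326, 788 and 964 CPM against 166, 615 and 494 CPM (0.67 ± 0.33, adjusted p = 0.0084), a call lost at 1500 UMIs per cell (0.43, adjusted p = 0.25). Man1a, a mannosidase of the Golgi, was at 570, 426 and 216 CPM against 288, 269 and 144 CPM (0.68 ± 0.18, adjusted p = 0.015), lost without library 2 (adjusted p = 0.096) and with at least 2 Tph1 UMIs required (adjusted p = 0.084). Crip1 did not overlap between the groups, while Fxyd2 and Man1a did, although each was higher with Tph1 within every library. S100a10, the annexin A2 partner, was at 442, 411 and 386 CPM against 170, 268 and 259 CPM (0.69 ± 0.42, adjusted p = 0.017), with no overlap. Bmp3, a ligand of the TGF-beta family, was at 105, 233 and 186 CPM against 50.4, 157 and 88.8 CPM (0.78 ± 0.26, adjusted p = 0.042), with overlap. Its call was lost at 1500 UMIs (adjusted p = 0.14), at 3000 UMIs (adjusted p = 0.16) and with at least 2 Tph1 UMIs required (adjusted p = 0.13).

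**Figure D4:**
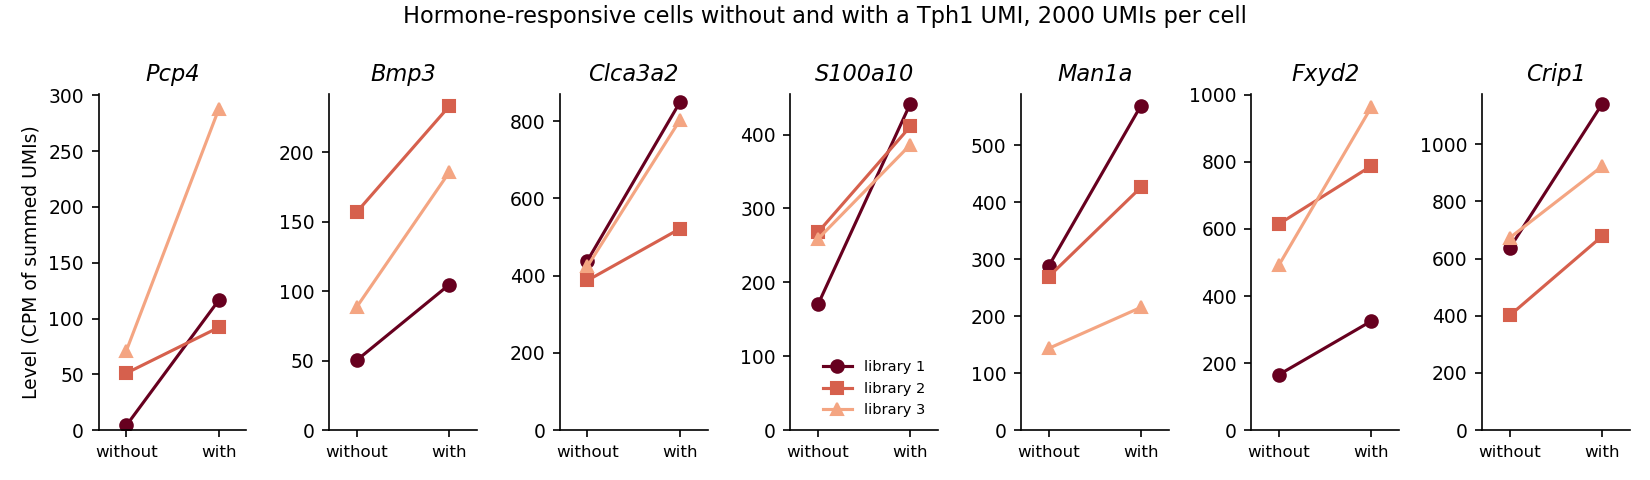
Level in CPM of summed UMIs of the 7 genes that passed the test, in hormone-responsive-like cells without and with a Tph1 UMI at 2000 UMIs per cell; each line is a library. All lines rise, by ratios that differ between libraries most for Pcp4.

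These calls were not firm. DESeq2 called 0 genes, with 42 at an unadjusted p under 0.05 against 351 in edgeR, the fit without the library block called 0 (86 at an unadjusted p under 0.05), and the fit without library 3 called 0 (256). In each of these fits all 7 genes were still higher in cells with Tph1. On sums thinned to equal totals, which left 1334 genes to test, 7 genes were called, 6 higher and 1 lower, and 2 of them were among the 7. Clca3a2 (0.92) and S100a10 (0.98) were called there, and Bmp3 (0.29, adjusted p = 0.90), Man1a (0.45, adjusted p = 0.56), Fxyd2 (0.55, adjusted p = 0.28) and Crip1 (0.56, adjusted p = 0.074) were not.

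No listed gene of the serotonin pathway or of hormone signalling passed the test between these cells. Of the pathway lists, 4 of 9 measured synthesis and cofactor genes, 3 of 12 storage and breakdown genes, 0 of 10 receptors and 3 of 12 tryptophan genes passed the filter, and 0 were called. Of the oestrogen and progesterone list 4 of 12 and of the prolactin list 8 of 11 passed the filter, with 0 called. Dnajc12 was at 180 ± 120 CPM with Tph1 and 191 ± 57.9 CPM without, a log2 difference of 0.05 ± 0.83 whose sign changed between fits (adjusted p = 0.98). Ido1 was at 69.5 ± 13.3 against 35.3 ± 9.46 CPM, higher in all 3 libraries (1.00 ± 0.43, adjusted p = 0.26, and 0.036 with the class rule at 2 times the others). Wnt4, a progesterone target, differed by 0.45 ± 0.26 (adjusted p = 0.26, and 0.0035 without library 1). Maoa differed by -0.37 ± 0.49 (adjusted p = 0.95). A gene that missed the threshold is not shown to be equal.

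The class genes are given without a test, since they chose the cells. Prlr was at 3148 ± 231 CPM in cells with 0, 3225 ± 46.2 in cells with 1 and 3718 ± 85.0 CPM in cells with 2 or more thinned Tph1 UMIs, where each library lay above its own value at 0. Pgr, the progesterone receptor, was at 286 ± 95.8, 370 ± 147 and 271 ± 64.6 CPM, and Areg at 1444 ± 522, 1231 ± 330 and 1472 ± 386 CPM, each within its spread. Acta2, which marks basal cells, was at 122 ± 63.5, 78.7 ± 77.4 and 124 ± 94.8 CPM, and the luminal progenitor gene Csn3 at 122.5 ± 36.6, 117 ± 24.3 and 127 ± 63.4 CPM. The genes that passed are given over the same steps. They were picked in these same cells for differing between 0 and at least 1 UMI. A rise from 0 therefore follows from that choice and adds no evidence. S100a10 was at 232 ± 54.0, 387 ± 26.8 and 440 ± 20.8 CPM, and Crip1 at 570 ± 148, 823 ± 382 and 1048 ± 108 CPM, though Crip1 was at 401 and 402 CPM over the first 2 steps in library 2 and at 1147 and 1135 CPM over the last 2 in library 1. Clca3a2 (417, 760 and 748 CPM) and Man1a (234, 438 and 390 CPM) had means no higher at 2 or more UMIs than at 1. Bmp3 (98.8, 159 and 189 CPM), Fxyd2 (425, 648 and 795 CPM) and Pcp4 (42.2, 162 and 182 CPM) had means that were higher at each step, with SDs at the last step of 65.4, 543 and 247 CPM. Not every library rose at the last step. Pcp4 fell there from 206 to 57.7 CPM in library 1 and from 139 to 22.7 CPM in library 2. It rose only in library 3, from 141 to 467 CPM. Fxyd2 fell from 529 to 192 CPM in library 1 and Bmp3 from 247 to 212 CPM in library 2, and both rose in the remaining libraries.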

How the data were processed

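Single-cell RNA-seq was measured in 3 libraries of sorted mouse mammary epithelial cells, 1 group. The authors deposited raw UMI counts per gene symbol and barcode, with no normalization per the labels; per the submitters' processing notes, Cell Ranger 2.1.0 and mm10 were used. Annotation and cell calling: not given in the sources used here. Total counts were 18584156, 27220670 and 30984706. Barcodes with at least 500 genes and under 10% mitochondrial UMIs were kept (6343, 8934 and 11043), and the highest Scrublet scores (scanpy 1.11.5) were removed at a rate proportional to the number of barcodes (340, 646 and 982 cells).

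UMIs were added up over the cells of each class in each library (9 sums), and thinned counts per library and Tph1 status (6 sums). The test was the two-sided quasi-likelihood test of edgeR 4.0.16 in R 4.3.3, with TMM scaling, filterByExpr and the library as block. A call needed a Benjamini-Hochberg adjusted p under 0.05 and, between classes, a log2 fold change of 1 or more in size, with no such minimum between cells with and without Tph1. The ± beside a fold change is the SD over the log2 ratios of the 3 libraries (prior count 2). The pairing comes from the shared suspension: deviations from group means correlated at 0.292 to 0.573 within a library and at most at 0.153 between libraries. Named genes were list members, the 12 largest called changes in each direction of at least 20 CPM with 1 sign in all libraries, and the 10 most like Tph1. The gene, the lists and the class rule were chosen with earlier results of these data known. Alternatives were DESeq2 1.42.0, no filter, no block, other thinning depths, seeds, class rules and doublet handling, and leaving out each library. A share of 0 is given with the limit that 3 counts allow. No column was left unused (0).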

Additional observations from a re-analysis of the deposited data

How the results depend on the processing

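The share of hormone-responsive-like cells with Tph1, 17.3% ± 2.54 at 2000 UMIs per cell, was 14.5% at 1500 and 21.7% at 3000 UMIs, and 15.9% to 18.3% without a library. Counts called between classes stayed within 1.5 times of 3098 (against luminal progenitor-like) and 4535 (against basal-like cells) under all alternatives: without a library they were 2328 to 3488 and 3974 to 4756. The 7 calls between cells with and without Tph1 became 0 with DESeq2, 0 without the replicate block, 19 with Tph1 status taken from all UMIs (7 of the 7 among them), and 0 to 42 without a library: 42 without library 1, 11 without library 2 (5 of the 7 among them) and 0 without library 3. On sums thinned to equal totals it was 7, with 2 of the 7 among them. For these 11 named genes, 33 of 151 values under alternatives lost the call and 4 changed sign, all of Dnajc12 (main value 0.05): -0.085 with DESeq2, -0.18 without library 3 (0.18 without library 1), -0.0075 at 3000 UMIs and -0.0099 with another thinning. The 33 lost calls all fell on the 7 called genes. The 151 values include those of Dnajc12, Ido1, Wnt4 and Maoa, which had no call to lose. With at least 2 Tph1 UMIs required, 8 genes were called, 5 of them among the 7. Some named genes had no call to lose between classes, such as Stat5a against luminal progenitor-like and Csn2 against basal-like cells. With these included, 6 of 241 values against luminal progenitor-like and 15 of 257 against basal-like cells lost the call, and no named gene changed sign. The cause of these shifts was not tested. The number of cells with Tph1, 43 in library 1, limits the precision of that library. Library 1 also stood apart in other measures. In the compared cells without Tph1 the median mitochondrial share was 3.98%, 1.83% and 1.87% in libraries 1, 2 and 3. In hormone-responsive-like cells the immediate-early gene Fosb was at 203, 2617 and 3565 CPM. The stress genes Hspa1a and Dnajb1 were at 965, 498 and 500 CPM and at 159, 231 and 218 CPM. What these differences do to the results was not tested.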

Other observations

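Tnfsf11 and Calca, paracrine signals of hormone-responsive-like cells chosen here after their values were seen, varied more between libraries than Tph1. Tnfsf11, the RANK ligand induced by progesterone, was at 5.61, 130 and 7.98 CPM in libraries 1, 2 and 3, and Calca, which encodes calcitonin and CGRP, at 4.80, 678 and 93.8 CPM, while Tph1 was at 171, 184 and 138 CPM. In library 2 at 2000 UMIs per cell, 20 of 90 cells with Tnfsf11 had Tph1 (22.2%), beside 19.9% of 719 cells without; for Calca it was 29 of 135 (21.5%) beside 19.9% of 674. Socs2, a Stat5 target, was at 19.2, 59.7 and 44.9 CPM. Wnt4 was steady, at 310, 318 and 276 CPM, and Areg was at 1706, 1707 and 970 CPM.

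Alpha globin, found in a share of the class, did not run with Tph1 in 1 direction: of cells with Hba-a1, 6.25%, 25.7% and 18.1% had Tph1, beside 17.2%, 18.9% and 16.1% of cells without. For Dnajc12 the shares were 7.35%, 21.4% and 18.2% beside 17.8%, 19.7% and 15.3%. For Pcp4 they were 60.0%, 31.0% and 27.3%, of 5, 29 and 44 cells, beside 14.5%, 19.7% and 15.9%. None of these shares was tested.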
